A study of Mus musculus with 16 samples.

Results

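The DNA replication genes are the 41 genes that license replication origins, unwind and copy DNA, join the new strands, supply deoxynucleotides and drive entry into S phase. They were chosen by name in the deposited tables of gene names. One transcript was used per gene, the one with the most ribosome footprints, and a mean of at least 10 RNA-seq counts was required. All 41 listed genes met this rule, out of 22612 genes in the count tables. The cells came from 3D–3C organoids, a culture in which hair follicle stem cells (HFSCs) and their progeny coexist. The organoids were grown for 2 weeks from epidermal cells of C57BL/6J mice and then sorted into α6+/CD34- progenitors and α6+/CD34+ HFSCs. Each population was taken from organoids that were either left untreated or given N1-acetylspermidine (N1-AcSpd), an acetylated polyamine, for the last 72 h. RNA-seq, which measures messages, and Ribo-seq, which counts ribosome-protected fragments (footprints), were performed on the same lysates from 2 donor mice. This gave 4 groups of 2 libraries per assay and 16 libraries in all, with the replicate number naming the donor. Both populations were sorted from a mixed culture, so the groups differ by the CD34 gate and not by lineage tracing.

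Replication origins are licensed in G1, when the origin recognition complex, Cdc6 and Cdt1 load the MCM2-7 helicase onto DNA. In S phase Cdc45 and the GINS complex convert the loaded ring into an active helicase, primase starts each strand, and the polymerases extend it on the sliding clamp Pcna. Most of these genes are classical targets of E2F transcription factors, which are released from the retinoblastoma protein when cyclin E and its kinase act at the G1/S boundary. In the hair follicle, bulge HFSCs are mostly quiescent and enter the cell cycle at the onset of hair growth.

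Promoters are shown because an E2F site is the feature these genes are best known to share. RefSeq promoters (GRCm38.p6), which run from 250 bases before to 50 bases after the start of a gene and are 300 bases long, were held for 32 of the 41 members, with 37 promoters. The members without one were Gmnn, Mcm4, Gins1, Gins2, Gins4, Rfc2, Prim2, Pole and Ccne2. Both strands were searched for the E2F letters TTTCCCGC, TTTGGCGC, TTTCGCGC and TTTGCCGC, and overlapping matches were counted separately. A match was present in 12 of 37 member promoters (32.4%) and in 2.26% of all 32851 promoters. The 12 genes with a match were Orc1, Cdc6, Cdt1, Mcm3, Mcm5, Mcm6, Mcm7, Gins3, Rfc3, Pola1, Pold1 and Lig1. The letters CCAAT, a box bound by NF-Y, were present in 59.5% of member promoters and in 37.4% of all promoters. The letters TTTGAA of the CHR element, which marks genes of G2 and mitosis, were present in 10.8% of member promoters and in 17.9% of all promoters. In 39 promoters of mitosis genes the shares were 5.13% for the E2F letters, 74.4% for CCAAT and 69.2% for TTTGAA. A match describes these letters only and is not evidence of binding. Gins3, Mcm7 and Rfc3 had a match upstream of the RefSeq start that is not shown, since their kept transcripts cover some or all of that stretch. The stretches below hold the first match upstream of the RefSeq start in the 5 other members with one. Matches are in capitals, and the stretches are written 5′ to 3′ on the strand of the gene.
Orc1 (chr4:108579397-108579453, + strand, first match beginning at base -27 from the start): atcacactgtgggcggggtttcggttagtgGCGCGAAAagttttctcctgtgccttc
Cdc6 (chr11:98907983-98908050, + strand, first match beginning at base -138): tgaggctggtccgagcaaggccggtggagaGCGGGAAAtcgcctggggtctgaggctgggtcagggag
Mcm5 (chr8:75109326-75109393, + strand, first match beginning at base -153): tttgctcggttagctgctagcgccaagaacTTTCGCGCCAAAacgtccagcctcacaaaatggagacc
Mcm6 (chr1:128359778-128359845, - strand, first match beginning at base -110): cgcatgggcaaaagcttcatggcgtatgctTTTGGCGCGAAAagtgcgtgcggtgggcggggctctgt
Pola1 (chrX:93632256-93632323, - strand, first match beginning at base -138): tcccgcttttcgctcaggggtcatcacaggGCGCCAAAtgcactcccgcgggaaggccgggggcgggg
Orc1 and Cdc6 act in licensing, Mcm5 and Mcm6 are helicase subunits, and Pola1 is the catalytic subunit of DNA polymerase alpha. In Mcm5 and Mcm6 the capitals are 2 matches on opposite strands that share letters.

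RNA-seq libraries held 21612795 to 31524062 counts and Ribo-seq libraries 34475 to 268052 footprints. The shallowest Ribo-seq library was untreated progenitor replicate 1 and the deepest untreated progenitor replicate 2. The sort was visible in its own marker, since Cd34 lay between 2.35 and 5.36 CPM (counts scaled to a library of 1000000) in the 4 progenitor libraries and between 67.4 and 89.9 CPM in the 4 HFSC libraries. Before the results, one fact about the libraries has to be stated. Over all 14224 genes tested, the difference between the replicates was shared by untreated progenitors, untreated HFSCs and treated progenitors, and it ran the other way in treated HFSCs (correlations of -0.40 to -0.27). The RNA-seq libraries labelled HFSC N1-AcSpd replicates 1 and 2 therefore go against their replicate numbers. The comparisons of untreated cell types and of N1-AcSpd in progenitors can be made without them and are given both ways, whereas averages over both treatments or both cell types and every comparison with treated HFSCs need them. In bulk samples, fewer cells that express a gene and less RNA per cell cannot be told apart.

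The members spanned a wide range of message levels. Levels are compared between genes per length, as the mean RNA-seq CPM per kb of transcript over 8 libraries ± SD. Pcna was highest at 148 ± 12.6, followed by Rrm2, the regulatory subunit of ribonucleotide reductase, at 96.5 ± 21.8. The 6 MCM2-7 subunits, which assemble in equal numbers into one ring, lay between 35.2 (Mcm4) and 60.4 (Mcm7). The GINS subunits, which also form a complex of one copy each, were spread from 1.505 (Gins3) to 29.5 (Gins4). Licensing genes ranged from 6.14 (Orc1) to 36.0 (Gmnn), the primase and polymerase genes from 8.09 (Pola1) to 25.9 (Prim1), and Ccne1, Ccne2 and E2f1 from 8.45 to 8.90. The last 3 lay within one SD of each other. Transcript length was taken from the annotation, so a gene whose cells use a shorter transcript than the one kept would read low.

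Footprints on these genes were few but frequent for their messages. The 41 members held 4237 footprints over 8 libraries, of which the MCM2-7 genes had 1367, the deoxynucleotide supply genes 961 and the G1/S drivers 55. Footprints per message was taken as the log2 ratio of a gene's share of all footprints to its share of all RNA-seq counts, both pooled over 8 libraries. Its median was 0.81 (quartiles 0.20 and 1.152) in the 40 members with a mean of at least 1 footprint, and 0.25 (quartiles -0.51 and 0.91) in 8439 genes. Tk1 (thymidine kinase, 1.66), Rfc3 (1.63), Gins1 (1.58) and Mcm3 (1.56) were highest. Orc2, a subunit of the origin recognition complex, was lowest at -2.29, with 8 footprints in all, which put it at the 2.35th percentile of the genes. E2f1 followed at -1.22 and Rfc1, the large subunit of the clamp loader, at -0.74. Within the MCM ring Mcm7 stood apart at -0.65, whereas the other 5 subunits lay between 0.35 (Mcm6) and 1.56 (Mcm3). Pcna, the most abundant message, had -0.29. Since the kept transcript is the one with the most footprints, the ratio is read only between genes treated alike. Pooling weighs libraries by their depth, and untreated progenitor replicate 2 alone held 268052 footprints. The ratio was not corrected for the coding part of a transcript, which was 555 of 3900 bases in Gins2 and 3315 of 3454 in Pold1.

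**Figure D1:**
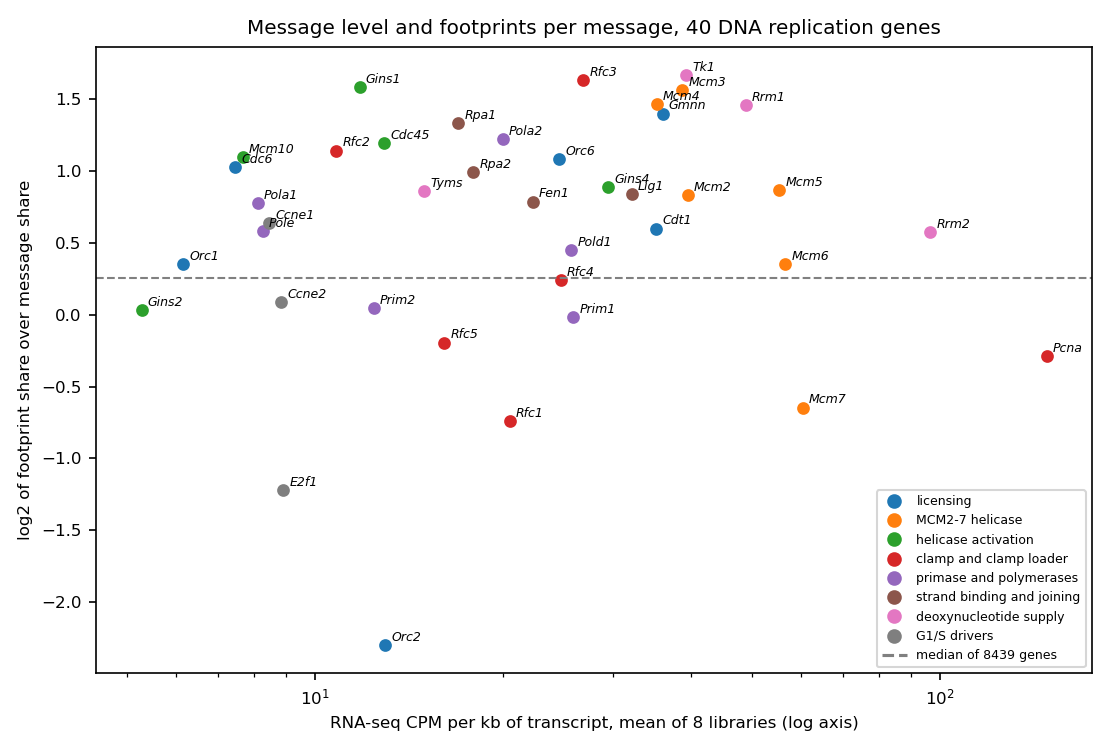
Mean RNA-seq CPM per kb of transcript (log x axis) against the log2 ratio of footprint share to message share (y axis) for the 40 members with a mean of at least 1 footprint, coloured by role, with the median of 8439 genes (0.25) as a dashed line. Pcna lies far to the right at 148 CPM per kb and below the line, Orc2 lies lowest at -2.29, and most members lie above the line.

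Across the 8 RNA-seq libraries the members varied together, and the libraries at the extremes were not those of one group. The highest value over the lowest had a median of 1.52 over the 41 genes, from 1.26 for Pcna to 2.65 for Ccne1. Treated progenitor replicate 1 held the highest value of 17 members and treated HFSC replicate 2 that of 16. The lowest value fell in treated progenitor replicate 2 for 28 members. Replicate 1 was above replicate 2 for 95.1% of members in untreated progenitors, for 90.2% in untreated HFSCs, for 97.6% in treated progenitors and for 0% in treated HFSCs. This full pattern of signs was shown by 35 of 41 members (85.4%) and by 15.6% of 14224 genes.

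**Figure D2:**
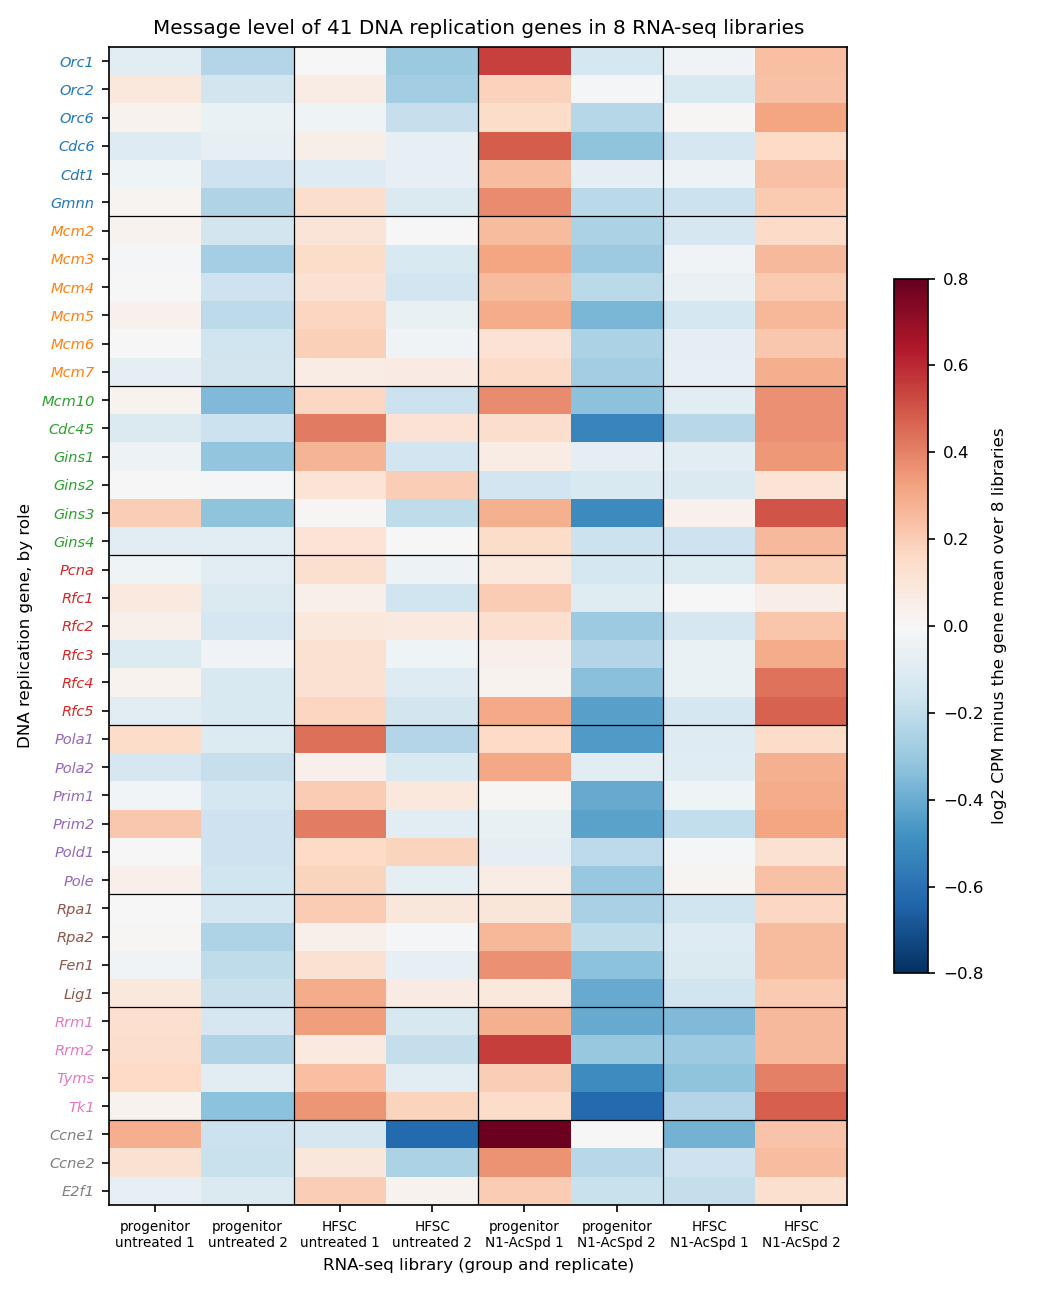
Message level of the 41 members (rows, grouped by role) in 8 RNA-seq libraries (columns), as log2 CPM minus the gene's mean over the 8 libraries. Treated progenitor replicate 1 and treated HFSC replicate 2 hold the highest value of 17 and 16 members, and treated progenitor replicate 2 the lowest of 28.

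The summed level of the 41 genes gave the same picture. In RNA-seq it was 2930 and 2571 CPM in replicates 1 and 2 of untreated progenitors and 3201 and 2771 CPM in untreated HFSCs. Upon N1-AcSpd treatment it was 3361 and 2384 CPM in progenitors and 2631 and 3402 CPM in HFSCs. The ranges of all 4 groups overlapped, and both extremes lay in treated libraries, the lowest in progenitors and the highest in HFSCs. HFSCs exceeded progenitors 1.09-fold in replicate 1 and 1.08-fold in replicate 2 of the untreated organoids. In Ribo-seq the sums were 3398 and 4953 CPM in untreated progenitors, 5599 and 5378 in untreated HFSCs, 5764 and 4445 in treated progenitors and 6182 and 4727 in treated HFSCs. The first of these values rests on 134 footprints. In Ribo-seq replicate 1 of the treated HFSCs was above replicate 2, the reverse of the RNA-seq order.

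**Figure D3:**
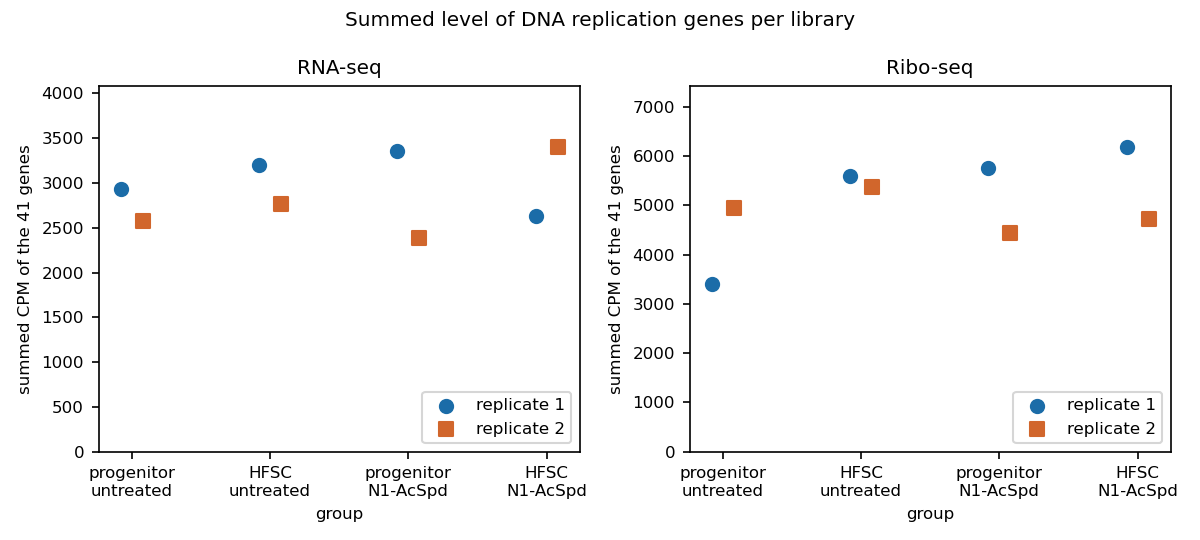
Summed CPM of the 41 members in each library by group, RNA-seq on the left and Ribo-seq on the right, with the replicates marked. In RNA-seq replicate 1 is above replicate 2 in 3 groups and below it in treated HFSCs (2631 and 3402 CPM), and in Ribo-seq untreated progenitor replicate 1 is lowest at 3398 CPM.

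The difference between the mice was tested over the 6 RNA-seq libraries without treated HFSCs, with group as a term. This fit was chosen after the data were seen, and the libraries it leaves out are those that run the other way. Replicate 2 was below replicate 1 in 40 of 41 members, with a median log2 difference of -0.28, against 0.01 over all genes. In edgeR 14 members passed an adjusted p of 0.05, all lower in replicate 2, where 3.77% of all 14213 genes were called lower and 7.41% in either direction. At an unadjusted p under 0.05 there were 31 members, all lower, against 10.9% of all genes lower and 22.6% in either direction. With all 8 libraries 38 of 41 were lower with a median of -0.12 and 0 were called, 0 members had an unadjusted p under 0.05 (4.33% of all genes), and 0% of all genes were called. DESeq2 was not run on these fits. By role, all 4 deoxynucleotide supply genes (Rrm1, Rrm2, Tyms and Tk1) were called in the 6 libraries, with a median of -0.45. The helicase subunits Mcm3, Mcm4 and Mcm5, the replication factor Mcm10, the licensing inhibitor geminin (Gmnn), Pola1, the primase subunit Prim2, the DNA ligase Lig1 and both cyclin E genes made up the rest. None of the 6 clamp and clamp loader genes was called (median -0.21, 4 with an unadjusted p under 0.05).

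Ccne1, which encodes cyclin E1 (chr7:38097984-38107534, - strand), differed most between the mice. It had 19.8 and 14.4 CPM in untreated progenitors, 14.8 and 10.6 in untreated HFSCs, 28.0 and 16.2 in treated progenitors and 12.4 and 19.0 in treated HFSCs. Replicate 2 was lower in the first 3 groups and higher in the last. Over the 6 libraries the log2 difference was -0.58 ± 0.106 (SE, adjusted p = 0.0113). Rrm2 (chr12:24708241-24714146, + strand) had 229 and 175 CPM in untreated progenitors, 219 and 181 in untreated HFSCs, 304 and 168 in treated progenitors and 169.5 and 248 in treated HFSCs. Its order was the same as that of Ccne1, and the values of every group overlapped those of the other groups. Over the 6 libraries Rrm2 fell by 0.50 ± 0.100 (SE, adjusted p = 0.0164). Gins2 was the only member not lower in replicate 2, with a log2 difference of 0.04 (adjusted p = 0.851). With 2 mice the fit compares these animals only, and the organoid cultures grown from them. Its p-values rest on the spread among libraries and not on a spread among animals.

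**Figure D4:**
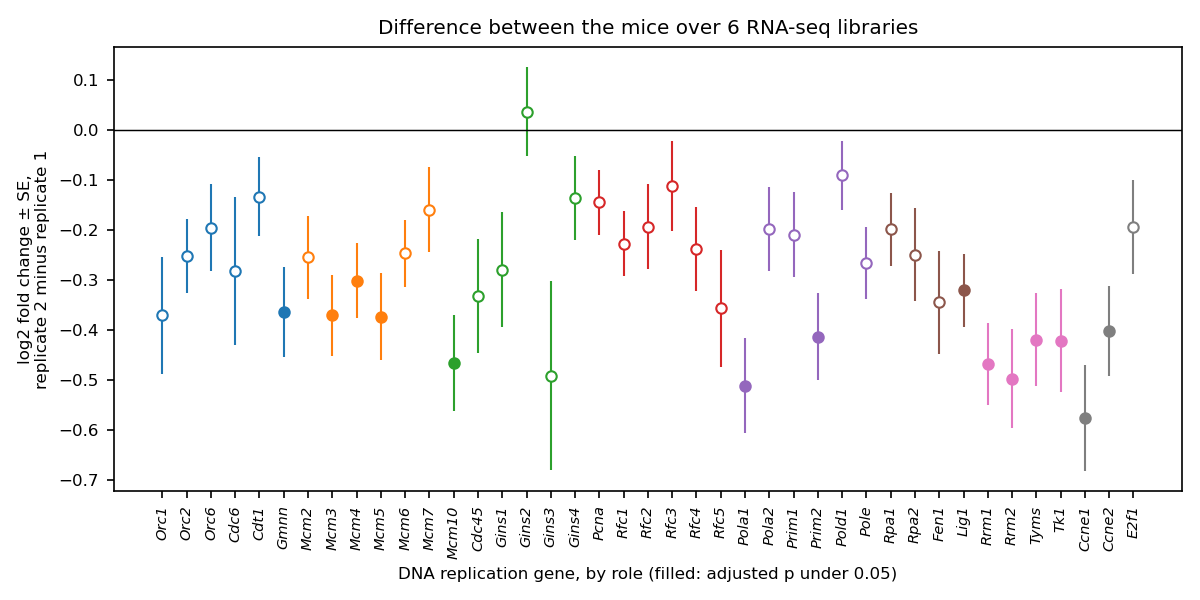
Log2 fold change of replicate 2 minus replicate 1 ± SE for each of the 41 members over the 6 RNA-seq libraries without treated HFSCs, with the 14 members at an adjusted p under 0.05 filled. All points but Gins2 (0.04) lie below 0, and Ccne1 is lowest at -0.58.

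Other gene lists differed between these mice as well. Of 43 mitosis genes 42 were called lower in replicate 2 (median -0.62), and of 11 HFSC markers 7 were called higher (median 0.58). All 5 fibroblast markers tested were higher and 3 were called, although their summed level never exceeded 13.6 CPM. Of 6 differentiated keratinocyte markers 5 were lower, with 0 called and 3 at an unadjusted p under 0.05. The part of these other genes in the members' difference was not tested. In the 6 matching Ribo-seq libraries 21 of 39 members tested were higher and 18 lower in replicate 2, with a median of 0.05 against 0.23 over all genes. In edgeR 0 of them were called (0.0354% of all genes) and 1 had an unadjusted p under 0.05 (4.1% of all genes).

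HFSCs were compared with progenitors to ask how the stem cell state relates to replication gene expression. On average over both treatments 34 of 41 members were higher in HFSCs and 7 lower, by a median log2 difference of 0.12, against -0.01 over all genes. None passed an adjusted p of 0.05 in edgeR, where 3.91% of 14224 genes did, and none in DESeq2. With the replicate block and the numbers of the treated HFSC libraries exchanged, a pairing chosen from these data, 4 members were called, while 13.7% of all genes were. They were Prim1, Pold1 and Tk1, higher in HFSCs, and Ccne1, lower. Without a block there were 2 members at an unadjusted p under 0.05 in edgeR (18.1% of all genes) and 4 in DESeq2. The estimates had a median SE of 0.133, and the outermost bounds of the 95% intervals were -0.89 (Ccne1) and 0.77 (Tk1). The median over the members was moved by single libraries, to -0.0019 without treated progenitor replicate 2, to 0.018 without treated HFSC replicate 2 and to 0.24 without treated progenitor replicate 1, and it was -0.07 in replicate 1 alone and 0.30 in replicate 2 alone. The 95% intervals took a normal quantile of the SE, which makes them narrower than the edgeR test would. On that scale a 2-fold change lay outside the interval of every member in this averaged comparison. Within untreated and within treated organoids the Ccne1 interval reached -1.04 and -1.10, past a 2-fold decrease.

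By role the differences were small throughout. The 6 primase and polymerase genes were all higher in HFSCs with the largest median of 0.20, from 0.05 (Pola2) to 0.27 (Prim1). The 6 helicase activation genes were all higher, from 0.11 (Gins4) to 0.34 (Cdc45), and the 6 MCM2-7 genes from 0.05 (Mcm2) to 0.17 (Mcm7). Clamp and clamp loader genes ran from -0.04 (Rfc1) to 0.21 (Rfc4), and strand binding and joining genes from 0.08 (Fen1, the flap endonuclease) to 0.20 (Lig1). Licensing genes stayed around 0, from -0.06 (Orc1) to 0.05 (Orc6), and deoxynucleotide supply genes ran from -0.09 (Rrm2) to 0.38 (Tk1). The G1/S drivers held the lowest member, Ccne1 at -0.46, and the transcription factor E2f1 at 0.08. None of these values passed the test. Without the treated HFSC libraries, in untreated organoids with the mouse as a term, the 6 MCM2-7 genes, the 6 primase and polymerase genes and the 4 strand genes were again all higher, licensing genes ran from -0.09 (Orc6) to 0.14 (Gmnn), and Rrm2 was at 0.0075.

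Pold1, the catalytic subunit of DNA polymerase delta (chr7:44532746-44548847, - strand), had the smallest p. It had 88.4 and 78.8 CPM in untreated progenitors, 98.9 and 100.2 in untreated HFSCs, 84.3 and 76.4 in treated progenitors and 87.6 and 96.1 in treated HFSCs. Both HFSC libraries were above both progenitor libraries within each treatment, and the log2 difference was 0.22 ± 0.076 (SE, adjusted p = 0.160). Prim1, the catalytic primase subunit (chr10:128015172-128030037, + strand), had 40.01 and 36.9 CPM in untreated progenitors, 46.8 and 43.1 in untreated HFSCs, 40.95 and 30.7 in treated progenitors and 39.7 and 50.01 in treated HFSCs. Its groups were separate in untreated organoids and overlapped in treated ones, with a difference of 0.27 ± 0.115 (SE, adjusted p = 0.252). For Ccne1, the values given above were lower in HFSCs by 0.46 on the log2 scale as an estimate (SE 0.220, adjusted p = 0.325), and the groups overlapped in both treatments.

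In untreated organoids alone, the comparison that the treated HFSC libraries do not enter except through the shared spread, 34 members were higher in HFSCs and 7 lower. The median was 0.12 against -0.01 over all genes, with 0 members called in edgeR (0.148% of all genes) or DESeq2. Pold1 was the 1 member at an unadjusted p under 0.05 in edgeR (9.58% of all genes), with a log2 difference of 0.25 ± 0.108 (SE, adjusted p = 0.500), and 0 had one in DESeq2. Of the 41 members 28 were higher and 5 lower in HFSCs in both mice. In 12 members both HFSC libraries were above both progenitor libraries and in 0 below, where 19.1% and 21.6% of all genes did so. These were Cdc6, Mcm7, Cdc45, Gins2, Gins4, Rfc2, Pola2, Prim1, Pold1, Rpa1, Tk1 and E2f1. Without the treated HFSC libraries and with the mouse as a term, 35 were higher and 6 lower (median 0.13) with 0 called (5.58% of all genes). Unadjusted p under 0.05 was then reached by 7 members (17.7% of all genes), higher in HFSCs for Cdc45, Prim1, Pold1, Rpa1, Lig1 and Tk1 and lower for Ccne1. The smallest adjusted p among them was that of Tk1 (log2 difference 0.43 ± 0.125 SE, adjusted p = 0.0875). Without the mouse term these 6 libraries had Pold1 alone at an unadjusted p under 0.05. Over all 14213 genes 765 higher and 581 lower reached it in that fit.

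In treated organoids 30 members were higher in HFSCs and 11 lower (median 0.08), and 0 were called in edgeR or DESeq2, with 0 at an unadjusted p under 0.05 by either tool (0.745% and 11.2% of all genes in edgeR). Only 2 members, Gins2 and Pold1, had both HFSC libraries above both progenitor libraries, and 0 had them below (19.6% and 19.5% of all genes). These values rest on the libraries whose order between replicates was reversed, and their median ranged from -0.10 without treated progenitor replicate 2 to 0.34 without treated progenitor replicate 1. In replicate 1 alone it was -0.28 and in replicate 2 alone 0.50.

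The genes kept as one per role varied mainly between libraries and not between groups. Mcm2 (chr6:88883474-88898780, - strand) had 135 and 119 CPM in untreated progenitors, 142 and 132 in untreated HFSCs, 158 and 111 in treated progenitors and 120.5 and 147 in treated HFSCs. The lowest and the highest Mcm2 value both belonged to treated progenitors, so the groups overlapped. Pcna (chr2:132249162-132253314, - strand) had 219.6 and 212 CPM in untreated progenitors, 245 and 218 in untreated HFSCs, 238 and 204 in treated progenitors and 208 and 256 in treated HFSCs. Pcna was the steadiest member. Gmnn (chr13:24751845-24761923, - strand) had 34.8 and 29.0 CPM in untreated progenitors, 37.9 and 31.6 in untreated HFSCs, 44.5 and 29.6 in treated progenitors and 30.4 and 39.6 in treated HFSCs. E2f1 (chr2:154559634-154569720, - strand) had 23.3 and 22.5 CPM in untreated progenitors, 27.9 and 24.8 in untreated HFSCs, 28.0 and 21.6 in treated progenitors and 21.4 and 26.6 in treated HFSCs. For Gmnn all 4 groups overlapped, and for E2f1 only the untreated groups were separate. Log2 differences between HFSCs and progenitors averaged over treatments were 0.05 for Mcm2, 0.09 for Pcna, 0.02 for Gmnn and 0.08 for E2f1, with adjusted p from 0.672 (Pcna) to 0.967 (Gmnn).

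N1-AcSpd was tested within each cell type to ask what the added polyamine does to these messages. Averaged over both cell types 28 members were higher and 13 lower upon treatment, with a median log2 difference of 0.05 against -0.01 over all genes. In edgeR 0 members were called and 0 had an unadjusted p under 0.05, as in DESeq2, where edgeR had 1.64% and 15.6% of all genes. With the same exchange of numbers in the block 1 member was called (Ccne1, higher), while 8.86% of all genes were. With the same normal quantile, the 95% intervals reached from -0.51 (Prim2) to 0.77 (Ccne1). The sign of the median rested on single libraries, since it became -0.08 without treated progenitor replicate 1 and -0.04 without treated HFSC replicate 2, and 0.15 without treated progenitor replicate 2.

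The 6 licensing genes were all higher upon N1-AcSpd, with a median of 0.14, from 0.11 (Gmnn) to 0.33 (Orc1). The 6 MCM2-7 genes were all higher by 0.01 (Mcm6) to 0.14 (Mcm3), while primase and polymerase genes ran from -0.18 (Prim2) to 0.21 (Pola2) with 4 of 6 lower. Deoxynucleotide supply genes had 3 of 4 lower, from -0.08 (Rrm1) to 0.14 (Rrm2), and strand binding and joining genes ran from -0.12 (Lig1) to 0.12 (Rpa2). Helicase activation genes ran from -0.14 (Gins2) to 0.18 (Mcm10), clamp and clamp loader genes from -0.02 (Rfc2) to 0.13 (Rfc5), and the G1/S drivers from -0.01 (E2f1) to 0.34 (Ccne1). None of these values passed the test. In progenitors without the treated HFSC libraries, and with the mouse as a term, the licensing genes had 5 of 6 higher (median 0.20), the MCM2-7 genes were again all higher (median 0.07), and 5 of 6 primase and polymerase genes were lower (median -0.08), with 0 called.

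Orc1, the largest subunit of the origin recognition complex (chr4:108579454-108614833, + strand), had the smallest p for N1-AcSpd. It had 17.2 and 15.5 CPM in untreated progenitors, 18.2 and 14.8 in untreated HFSCs, 26.6 and 16.6 in treated progenitors and 17.8 and 21.5 in treated HFSCs. Its treated and untreated values overlapped in both cell types, and the log2 difference was 0.33 ± 0.159 (SE, adjusted p = 0.367). Cdt1, the licensing factor that geminin inhibits (chr8:122568015-122573128, + strand), had 74.9 and 68.3 CPM in untreated progenitors, 71.4 and 73.3 in untreated HFSCs, 90.7 and 72.6 in treated progenitors and 74.6 and 90.2 in treated HFSCs. Cdt1 was separate in HFSCs and overlapped in progenitors, with a difference of 0.19 ± 0.098 (SE, adjusted p = 0.403). Pola2, the accessory subunit of DNA polymerase alpha (chr19:5940542-5964202, - strand), had 43.7 and 42.3 CPM in untreated progenitors, 49.3 and 44.2 in untreated HFSCs, 59.4 and 45.1 in treated progenitors and 44.8 and 58.4 in treated HFSCs. Pola2 was separate in progenitors and overlapped in HFSCs, with a difference of 0.21 ± 0.117 (SE, adjusted p = 0.437).

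Within progenitors 24 members were higher upon N1-AcSpd and 17 lower (median 0.08), and within HFSCs 27 and 14 (median 0.05). The median turned to -0.19 in progenitors without treated replicate 1 and to -0.15 in HFSCs without treated replicate 2. In edgeR 0 members were called in progenitors (0.239% of all genes) and 0 in HFSCs (0% of all genes), with 0 at an unadjusted p under 0.05 in each (8.87% and 7.73% of all genes), and DESeq2 gave 0 and 0 as well. Both treated progenitor libraries were above both untreated ones for Pola2 and below them for Gins2 (18.1% and 20.7% of all genes). In HFSCs both were above for Orc6, Cdt1 and Gins3 and below for Gins2 and Pold1 (16.7% and 17.2% of all genes). In progenitors 10 members were higher and 4 lower in both mice. Without the treated HFSC libraries and with the mouse as a term, progenitors had 24 members higher and 17 lower (median 0.06), 0 called (3.43% of all genes), and an unadjusted p under 0.05 (16.4% of all genes) for Orc1, Pola2, Ccne1 (higher) and Prim2 (lower). The smallest adjusted p of these was 0.201, for Ccne1, with a log2 difference of 0.35 ± 0.129 (SE). Without the mouse term 0 members reached an unadjusted p under 0.05 in the same libraries. Over all 14213 genes 680 higher and 580 lower reached it in that fit. The difference between the cell types in the response to N1-AcSpd was tested as an interaction, in which 13 members were higher and 28 lower (median -0.05), with 0 called and 0 at an unadjusted p under 0.05 in edgeR and DESeq2 (0% and 0.83% of all genes in edgeR).

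**Figure D5:**
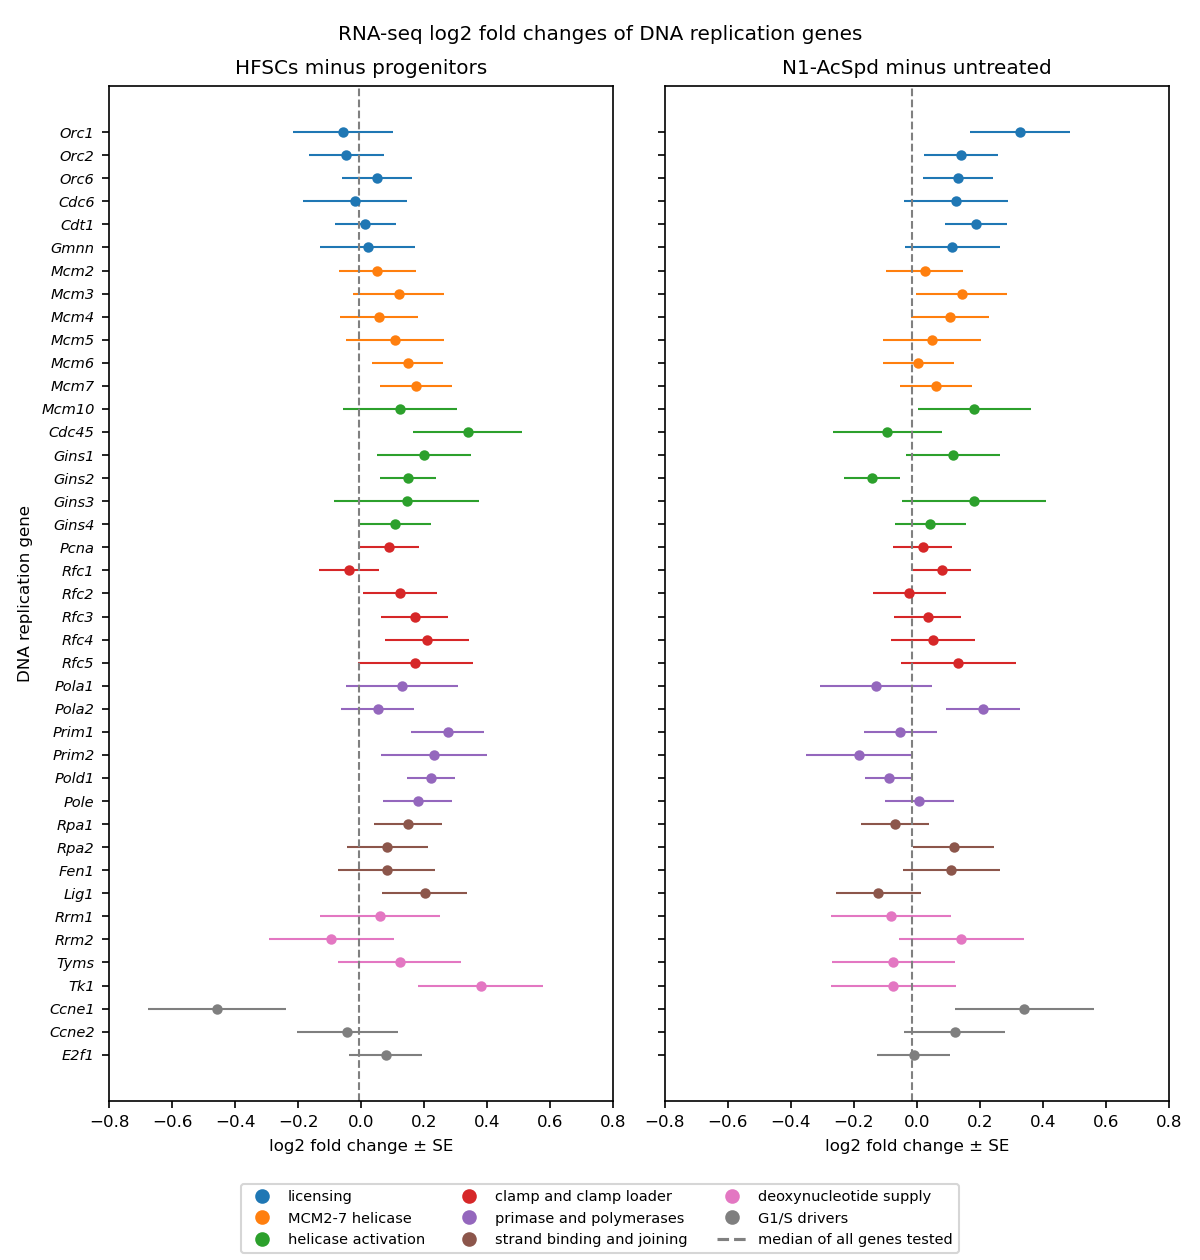
Log2 fold change ± SE of the 41 members in RNA-seq for HFSCs against progenitors (mean of both treatments) and for N1-AcSpd (mean of both cell types), with the median of all genes dashed. For HFSCs 34 members lie above 0 and Ccne1 lies lowest at -0.46, and for N1-AcSpd 28 lie above 0 with Ccne1 (0.34) and Orc1 (0.33) highest, and no member passes the test in either.

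Footprints were tested for 40 members, Gins3 being left out with 5 footprints in all. Averaged over treatments 26 were higher in HFSCs and 14 lower, with a median log2 difference of 0.24 against 0.00 over all genes and a median SE of 0.561. In edgeR 0 were called (0.154% of 8440 genes), as in DESeq2, with 1 at an unadjusted p under 0.05 in edgeR (4.14% of all genes) and 0 in DESeq2. In untreated organoids 28 were higher and 12 lower (median 0.37), and in treated organoids 25 and 14 with E2f1 at 0 in both groups (median 0.24). In edgeR 0 were called in either (0.0118% and 0.0355% of all genes), with 1 (Mcm4) and 0 at an unadjusted p under 0.05 (2.64% and 3.45% of all genes), and DESeq2 had 0 and 0. The untreated median became 1.57 without untreated progenitor replicate 2, which left the library of 34475 footprints as its only reference.

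Lig1, which joins Okazaki fragments (chr7:13278826-13311425, + strand), had the smallest p. Its footprints in replicates 1 and 2 were 3 and 38 in untreated progenitors, 9 and 31 in untreated HFSCs, 11 and 6 in treated progenitors and 45 and 10 in treated HFSCs. Scaled to library size these were 76.1 and 154 CPM, 158 and 248 CPM, 137 and 99.5 CPM and 315 and 168 CPM. Both HFSC libraries were above both progenitor libraries in each treatment, and the log2 difference was 0.87 ± 0.419 (SE, unadjusted p = 0.0364, adjusted p = 1.00). Mcm4 (chr16:15623897-15637400, - strand) had 127 and 321 CPM in untreated progenitors, 546 and 433 in untreated HFSCs, 387 and 216 in treated progenitors and 484 and 268 in treated HFSCs. Its footprints were separate in untreated and overlapped in treated organoids, with a difference of 0.64 ± 0.333 (SE, adjusted p = 1.00). Tk1 (chr11:117815526-117826092, - strand) had 50.7 and 126 CPM in untreated progenitors, 229 and 112 in untreated HFSCs, 224.6 and 99.5 in treated progenitors and 428 and 184 in treated HFSCs. Footprints of Tk1 overlapped between the cell types in both treatments, with a difference of 0.78 ± 0.415 (SE, adjusted p = 1.00).

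N1-AcSpd left 26 members higher and 14 lower in footprints on average (median 0.14 against -0.04 over all genes). In edgeR 0 were called (0.0829% of all genes), as in DESeq2, and the 2 members at an unadjusted p under 0.05 were Tk1 and E2f1 (4.85% of all genes), with 0 in DESeq2. The median of all members turned to -0.18 without treated HFSC Ribo-seq replicate 1 and became 0.47 without untreated progenitor Ribo-seq replicate 2. For Tk1 the values above gave a log2 difference of 0.83 ± 0.416 (SE, unadjusted p = 0.0454, adjusted p = 1.00). E2f1 had 1, 3, 0 and 5 footprints in the untreated libraries (progenitor replicates 1 and 2, then HFSC replicates 1 and 2) and 0 in each of the 4 treated ones. For the treated group, 3 counts were taken as the limit that a count of 0 allows. The 9 untreated footprints lay 2.20-fold above that limit, with no counting error put on them. This ratio is not a minimum decrease, and the difference did not pass the edgeR test (adjusted p = 0.941). E2f1 messages differed by -0.01 on the log2 scale. The ratio rests on untreated HFSC replicate 2, which held 5 of the 9 footprints, since without it the other 4 footprints lay 1.33-fold above the same limit. Rfc2, a small clamp loader subunit (chr5:134582690-134601805, + strand), had 0, 27, 8 and 13 footprints in the untreated libraries and 10, 10, 16 and 18 in the treated ones, in the same order. Its log2 difference was 0.77 ± 0.473 (SE, adjusted p = 1.00), and the single value of 0 came from the shallowest library. Within progenitors 25 members were higher and 15 lower (median 0.17), and within HFSCs 23 and 17 (median 0.14). The progenitor median was 0.18 with E2f1 at its limit and without Orc2, which had 0 footprints in both treated progenitor libraries. In edgeR 0 members were called in each cell type (0.0237% and 0% of all genes). At an unadjusted p under 0.05 there were 0 in each (2.83% and 3.54% of all genes), and DESeq2 had 0 by both measures. The interaction had 19 higher and 21 lower (median -0.01), also with 0 called and 0 at an unadjusted p under 0.05 in both tools (0% and 2.73% of all genes in edgeR).

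Translational efficiency, the change in footprints beyond the change in messages, was tested in one model over all 16 libraries. For HFSCs against progenitors 22 members were higher and 18 lower (median 0.10), and for N1-AcSpd 23 and 17 (median 0.06). In edgeR and DESeq2 0 of 40 members were called in either comparison, where edgeR called 0% of 8439 genes. At an unadjusted p under 0.05 edgeR had 0 members for HFSCs (6.01% of all genes) and 2 for N1-AcSpd (E2f1 and Gmnn, both lower, against 7.35% of all genes), and DESeq2 had 1 and 2. The median SE was 0.453 for HFSCs against progenitors. An SE is not a detection limit, and with 0% of all genes called the size of difference detectable for single genes is not known. With untreated progenitor replicate 2 left out of Ribo-seq, the median for HFSCs became 0.71.

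The rest of the pathway was read from lists outside the 41 genes, as RNA-seq differences of HFSCs against progenitors averaged over treatments. Of 34 other replisome genes 23 were higher and 11 lower with 0 called (median 0.05, smallest p for the topoisomerase Top2a, adjusted p = 0.228). Of 9 genes for chromatin behind the fork 8 were higher with 0 called (median 0.12, smallest p for the maintenance methyltransferase Dnmt1), and of 16 fork checkpoint and repair genes 14 were higher with 0 called (median 0.11). Of 19 other nucleotide synthesis genes 15 were lower with 0 called in edgeR and 1 in DESeq2 (median -0.05). The smallest p among them belonged to Paics, a purine synthesis enzyme that was higher in HFSCs by 0.28 (adjusted p = 0.0619). Mitosis genes were all 43 higher, with a median of 0.34 against 0.12 in the replication genes. In edgeR 0 of them were called (3.91% of all genes) and 8 had an unadjusted p under 0.05 (18.1% of all genes). The smallest p in edgeR was that of Nusap1. DESeq2 called 5, and its share over all genes is not given here. Upon N1-AcSpd 41 of these 43 were lower (median -0.16). There 0 were called in either tool and 0 had an unadjusted p under 0.05 (1.64% and 15.6% of all genes in edgeR). Without the treated HFSC libraries and with the mouse as a term, all 43 mitosis genes were higher in untreated HFSCs (median 0.35). There edgeR called 15 (5.58% of all genes), with 34 at an unadjusted p under 0.05 (17.7% of all genes). In progenitors the same fit had 42 of 43 lower upon N1-AcSpd (median -0.19). It called 1 of them (Cenpf, 3.43% of all genes) and had 19 at an unadjusted p under 0.05 (16.4% of all genes). In the other lists of this kind it called Top2a, higher in HFSCs and lower upon N1-AcSpd, and Paics, higher in HFSCs, and no other gene. Without the mouse term the same 6 libraries gave 0 called genes in the mitosis list and in these other lists. Of the mitosis genes 3 then had an unadjusted p under 0.05 for HFSCs and 0 for N1-AcSpd. Over all 14213 genes that fit called 11 higher and 8 lower in HFSCs, and 14 higher and 1 lower upon N1-AcSpd. Both fits were chosen after the data were seen.

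Among 22 regulators of the G1/S boundary 9 were higher and 13 lower in HFSCs (median -0.09). With 3.91% of all genes called in this comparison, 1 of them was called, cyclin D1 (Ccnd1), which fell by 0.44 ± 0.087 (SE, adjusted p = 0.0312, 0.0502 with the replicate block). Ccnd1 had 118 and 119 CPM in untreated progenitors, 85.2 and 92.9 in untreated HFSCs, 152 and 120.0 in treated progenitors and 98.5 and 99.3 in treated HFSCs. All 4 HFSC values of Ccnd1 were below all 4 progenitor values. Of 7 inhibitors of cyclin-dependent kinases 2 were called in edgeR, in opposite directions (median 0.15), and 4 in DESeq2. Cdkn1b, which encodes p27 and restrains cyclin E kinase, rose by 0.62 ± 0.084 (SE, adjusted p = 0.00691). It had 46.0 and 43.2 CPM in untreated progenitors, 62.8 and 61.8 in untreated HFSCs, 35.8 and 34.5 in treated progenitors and 65.7 and 53.8 in treated HFSCs. Cdkn1a, which encodes p21 and also binds Pcna, fell by 0.42 ± 0.088 (SE, adjusted p = 0.0366, 0.0594 with the replicate block). It had 217 and 195 CPM in untreated progenitors, 162 and 161 in untreated HFSCs, 164 and 203 in treated progenitors and 137 and 125 in treated HFSCs. The HFSC and progenitor values of Cdkn1b and Cdkn1a did not overlap either. In untreated organoids, without the treated HFSC libraries and with the mouse as a term, Cdkn1b was higher by 0.50 ± 0.085 (SE, adjusted p = 0.00803). Ccnd1 (-0.40 ± 0.108 SE, adjusted p = 0.0665) and Cdkn1a (-0.33 ± 0.106 SE, adjusted p = 0.121) did not pass. That fit also called Ccna2, Cdkn2c and Cdkn2d higher in HFSCs, and Cdkn2d lower upon N1-AcSpd in progenitors. Without the mouse term edgeR called 0 genes of these 2 lists in the same libraries. The adjusted p in untreated organoids was then 0.109 for Cdkn1b, 0.328 for Ccnd1 and 0.445 for Cdkn1a. Upon N1-AcSpd 0 genes of these lists were called in edgeR, while DESeq2 called 2 nucleotide synthesis genes. The smallest adjusted p were 0.0836 for Rbl2 (of the retinoblastoma family) among the G1/S regulators, 0.0976 for Cad among the nucleotide synthesis genes and 0.144 for Cdkn2d among the inhibitors, of which 6 of 7 were lower (median -0.24). Medians of the other lists were 0.04 for other replisome genes, 0.04 for chromatin behind the fork, 0.08 for nucleotide synthesis, 0.05 for G1/S regulators and 0.02 for checkpoint and repair genes.

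Markers of cell state moved with the cell type while the replication genes did not pass the test. Of 11 HFSC markers, which include the sorting marker Cd34, all were higher in HFSCs and 7 called (median 1.29), where 3.91% of all genes were called. Their summed levels were 382 to 618 CPM in progenitor and 844 to 1653 CPM in HFSC libraries. All 6 differentiated keratinocyte markers were lower and 4 called (median -1.33), and all 6 lineage markers were lower and 2 called (median -0.37). Of 5 basal keratinocyte markers 3 were lower with 0 called. Upon N1-AcSpd the 6 differentiated markers were higher with 2 called (median 0.96), where 1.64% of all genes were called. Their summed level lay between 160 and 331 CPM in untreated and between 245 and 678 CPM in treated libraries. Markers of other cell types had low summed levels in every library. They were 1.07 to 13.6 CPM for fibroblasts, and at most 3.18 for immune cells, 2.12 for melanocytes and 1.62 for endothelial cells. Of the 11 that could be tested 0 were called for cell type or N1-AcSpd. Without the treated HFSC libraries and with the mouse as a term, 11 of 11 HFSC markers were called higher and 3 of 6 differentiated and 3 of 6 lineage markers lower in untreated HFSCs (5.58% of all genes called). In the same fit 4 of 6 differentiated markers were called higher upon N1-AcSpd in progenitors (3.43% of all genes called). Without the mouse term these libraries had 3 HFSC markers called higher (Cd34, Krt15 and Nfatc1). In that fit 0 differentiated and 0 lineage markers were called in untreated HFSCs, and 1 differentiated marker (Ivl) upon N1-AcSpd. The part of these marker differences in the members' values was not tested.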

How the data were processed

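RNA-seq and Ribo-seq counts per transcript were used as the authors deposited them. Before counting, they ran flexbar against adapter sequence, discarded ribosomal and transfer RNA fragments found by bowtie, and mapped what was left with STAR (mm10). The submitters' processing notes name STAR 2.7.3a, Bowtie 1.2.3, featureCounts and the build GRCm38.p5. The counted region and the use of strand are not given in the sources used here, so overlapping and antisense genes cannot be told apart. Columns of the authors' own comparisons (fold changes and p-values of translational efficiency) were not used. Per-sample columns left unmapped numbered 0.

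One transcript was kept per gene and its counts were tested in edgeR 4.0.16 (R 4.3.3) with the quasi-likelihood test and TMM scaling. Genes needed 1 count on average, p-values were adjusted over all genes by the Benjamini-Hochberg method, and all 8 libraries of an assay entered one fit of 4 groups. Translational efficiency was the interaction of assay and contrast over 16 libraries. DESeq2 1.42.0 was an alternative, and scripts were tested on simulated data. CPM used TMM-scaled library sizes. An exact permutation test of 2 against 2 libraries cannot reach 0.05. Limits from counts of 0 cover counting error only, as fragments carry no molecular identifiers.

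Members, lists and comparisons were chosen with earlier results of these data known. Values in every library were given for the 3 smallest p of each averaged RNA-seq and Ribo-seq comparison, in the assay of that comparison. They were also given for 1 gene per role (Mcm2, Pcna, Cdt1, Gmnn, Ccne1, E2f1, Rrm2), with other members named as extremes of a role. Members at an adjusted p under 0.05 for cell type or N1-AcSpd were to be added, but the main fit called 0. Members called between the mice, or only with exchanged numbers in the block, were not added by this rule. Genes outside the 41 were named where called in RNA-seq or with the smallest p of a list, and their values by library were chosen after being seen. The labels give each sample a mouse, and each replicate number stands for the same mouse in all groups and both assays. Same-numbered RNA-seq libraries deviated together in 3 groups (correlations 0.24 to 0.40) and opposite with treated HFSCs (-0.40 to -0.27), and Ribo-seq correlations were 0.02 to 0.11. Positions and lengths are those of GENCODE (GRCm38).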

Additional observations from a re-analysis of the deposited data

How the results depend on the processing

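No member passed an adjusted p of 0.05 with DESeq2, other scaling or filters, summed transcripts, each replicate left out, or the replicate block, which changed no member's call (0 called in every comparison). Exchanging the numbers of the treated HFSCs in the block, chosen after seeing the data, called 4 members for HFSCs against progenitors and 1 for N1-AcSpd (1950 and 1260 genes in all, against 556 and 233 without a block). Of the medians over the members, 359 values moved by less than the spread and 34 by more, and the cause was not tested. The spread was the SD of the medians from each replicate alone. It is wide where the treated HFSC RNA-seq libraries enter, and values of a single replicate were judged against a spread made from themselves. A move smaller than it is therefore no sign of stability. For footprints of treated HFSCs against treated progenitors the median became 0.18 in DESeq2, 0.32 at a mean of 10 counts, 0.32 with transcripts summed and 0.31 with only the libraries compared. Averaged over treatments it became 0.46 at a mean of 10 counts and 0.11 with transcripts summed. The N1-AcSpd difference of E2f1 messages turned from -0.01 to 0.00028 in DESeq2, 0.00023 with DESeq2 size factors in edgeR and 0.00652 without a filter.

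Leaving out single replicates moved the RNA-seq median between 0.018 and 0.22 for untreated HFSCs against progenitors, between -0.07 and 0.30 for this contrast on average, between -0.28 and 0.50 for treated organoids, between -0.19 and 0.28 for N1-AcSpd in progenitors, between -0.23 and 0.32 for N1-AcSpd in HFSCs and between -0.076 and 0.15 for N1-AcSpd on average. For HFSCs against progenitors Mcm2 ranged from -0.13 to 0.28, Cdt1 from -0.15 to 0.21, Gmnn from -0.19 to 0.27 and Rrm2 from -0.43 to 0.30. For N1-AcSpd Mcm2 ranged from -0.11 to 0.15, Pcna from -0.052 to 0.090, Gmnn from -0.049 to 0.25, Rrm2 from -0.10 to 0.33 and E2f1 from -0.11 to 0.085. Footprint medians ranged from 0.10 to 1.57 (HFSCs against progenitors, untreated), 0.00 to 0.31 (treated), 0.16 to 0.77 (average), -0.26 to 1.14 (N1-AcSpd in progenitors), -0.29 to 0.15 (in HFSCs) and -1.43 to 0.29 (interaction). Efficiency medians ranged from 0.033 to 1.27 (untreated), -0.21 to 0.71 (average) and -0.19 to 1.16 (N1-AcSpd in progenitors). The upper ends above 0.70, and -1.43, came without untreated progenitor Ribo-seq replicate 2. A lone library was assumed to vary like the other groups. Depth limits the footprint tests, with 34475 footprints in the shallowest library.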
